A study of Arabidopsis thaliana with 12 samples.

Results

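Of 1919 windows of 3000 bases centred on putative enhancers of Arabidopsis thaliana, 198 were selected because uninduced seedlings held polyadenylated RNA from both strands but far more from one of them. The windows were chosen by the deposited signal itself: the mean over the 3 uninduced poly(A)+ libraries was taken for each strand, the lower mean had to reach 1005, and it had to be less than 0.2 times the higher mean. The value of 1005 is the largest, over the 12 libraries, of the smallest signal above 0, and is called the floor below. The strand with the lower mean is called minor and the other major. Another 245 windows reached the floor on both strands with a ratio of 0.2 or more, and 1476 windows stayed below it on their weaker strand. The 198 windows formed 170 separate loci when windows that overlapped and shared a minor strand were joined, and 52 of them overlapped another of the 198, so they are not independent of each other.

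All libraries came from 7-day-old seedlings of 1 line, RRP41-iRNAi, in which estradiol switches on an RNA interference construct that targets RRP41, an exosome subunit gene. Uninduced seedlings of that line, labelled RRP41 (WT), were the controls, so the controls carry the construct too, and no seedlings without it entered these comparisons. Induced seedlings, labelled rrp41-i, were germinated and grown on 17b-estradiol at a labelled concentration of 8 mM; estradiol and the knockdown therefore cannot be told apart. Each of the 3 biological replicates per condition gave a poly(A)+ library and a ribo-minus library, which is total RNA depleted of ribosomal RNA, prepared from the same total RNA, for 12 libraries in 4 groups of 3. RNA came from whole seedlings, so fewer cells of a type and less RNA per cell cannot be told apart.

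The RNA exosome is a multi-subunit complex that degrades RNA from its 3′ end, in the nucleus and in the cytoplasm, and RRP41 is one of its core subunits. In Arabidopsis it removes processing by-products and many short or antisense noncoding RNAs that are otherwise hard to see. RNA from the strand opposite a gene can be the mRNA of a neighbour, an annotated noncoding RNA, or an unannotated antisense RNA. Neighbouring genes are convergent when their 3′ ends face each other, and their mRNAs can then share a stretch of antiparallel sequence.

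In 126 of the 198 windows (63.6%) the minor strand carried a protein-coding gene convergent with a coding gene of the major strand. That share was 24.4% of all windows. It was higher, 191 of 245 (78.0%), in the unselected windows that reached the floor on both strands. The 126 windows made 106 distinct gene pairs. In 53 windows the annotated pair overlapped, by a median of 56 bases, and in 73 a gap with a median of 460 bases separated the 3′ ends. The short junctions that follow are shown to make the geometry visible. Each is the plus strand of RefSeq's TAIR10.1 genome, 5′ to 3′, and runs either between the annotated 3′ ends of both genes or over the bases that both genes share. Capitals mark AATAAA, the canonical polyadenylation hexamer, searched on both strands as AATAAA and TTTATT.
between KTF1 and AT5G04310, chr5:1202937-1202966: agaacaccgtttgcactacttaaaattata
between AT1G64130 and AT1G64140, chr1:23803688-23803792: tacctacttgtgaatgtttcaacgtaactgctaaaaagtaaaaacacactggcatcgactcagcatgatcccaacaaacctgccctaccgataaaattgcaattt
between CFM2 and AT3G01380, chr3:143783-143879: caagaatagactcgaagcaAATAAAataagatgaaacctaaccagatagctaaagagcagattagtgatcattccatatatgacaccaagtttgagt
between AT3G48020 and AT3G48030, chr3:17725199-17725409: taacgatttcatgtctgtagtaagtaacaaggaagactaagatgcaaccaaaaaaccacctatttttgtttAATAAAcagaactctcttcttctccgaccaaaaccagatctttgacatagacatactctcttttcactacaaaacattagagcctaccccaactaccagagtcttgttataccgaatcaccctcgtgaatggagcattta
shared by AT3G09670 and AT3G09680, chr3:2969045-2969058: gaatccaaaactaa
shared by MOS7 and CPD, chr5:1702640-1702659: ttctgcaaactattcctatg
shared by ATHXK4 and TCP-1, chr3:6998159-6998185: ctcatgattaagtaaattacagtttat
shared by SHS1 and CESA1, chr4:15640490-15640517: caaagatttcgttaaaagttcaaaaaaa

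The 30 bases between KTF1 and AT5G04310 are the shortest gap among these, and the hexamer is found in the CFM2 and AT3G48020 gaps alone. Of the 25 distinct pairs of the 198 windows with a gap of 8 to 300 bases, 3 (12%) held the hexamer in the gap on either strand, against 24.1% of such gaps over all windows. In the 300 bases centred on the junction, which reach into both genes, 57.5% of the 106 pairs held it on either strand, against 54.8% of 423 convergent pairs over all windows. A match to these letters is a description of the sequence and was not tested as a cleavage site.

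The convergent arrangement was frequent wherever both strands had signal. It was found in 63.6% of the selected windows and in 78.0% of those with a ratio of 0.2 or more. Among windows with a coding gene on each strand, the pair was convergent in 126 of 135 of the selected windows (93.3%), in 191 of 224 windows with a ratio of 0.2 or more (85.3%), and in 152 of 262 windows below the floor (58.0%). Divergent pairs, which face each other with their 5′ ends, supplied 7 of the selected windows. Another 2 held nested pairs, 8 held a noncoding gene on the minor strand, 1 held a pseudogene there, and 1 held a coding gene opposite a strand with no coding gene. The noncoding genes were the microRNA precursor MIR5018, a pair of tRNA genes (AT2G36510 and AT3G51265), the lncRNAs AT2G33051, AT2G45315, AT3G05905 and AT5G00875, and the miscellaneous RNA AT4G06430. The remaining 53 windows (26.8%) had no annotated gene on the minor strand. That share was 57.6% of all windows and 2.04% of the 245 windows with a ratio of 0.2 or more. In 6 of these 53 the nearest minor-strand gene upstream ended within 1000 bases of the window, and the median distance to it was 4589 bases.

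The window centres lay in a 3′ UTR in 67 of 198 windows (33.8%, against 23.4% of all windows), in a 5′ UTR in 7 (3.5% against 10.8%) and in a coding exon in 44 (22.2% against 13.3%). The centre lay in a gene of the minor strand in 45 windows (22.7% against 9.3%). In the 245 windows with a ratio of 0.2 or more these shares were 40.4%, 6.9%, 15.5% and 28.6%. By the annotation used here the centre lay outside any gene in 65 of the 198 windows (32.8%). That share was 42.3% of all windows and 30.2% of the 245. Motif shares of the central 300 bases are given as values and were not tested. The share with a TATAAA box was 35.4% against 38.4%, with AATAAA 52.5% against 54.7%, and with the CACGTG G-box 6.6% against 7.3%, each on either strand. The TGGGCC element was present in 14.1% against 18.6%, GAGAGAGA in 6.1% against 9.1%, and the telomere-like AAACCCTA in 2.0% against 4.1%. Median GC content was 36.5% against 35.7%.

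In uninduced poly(A)+ RNA, whose values chose the windows, the minor strand had a median mean signal of 2134 (1006 to 29688) and the major strand 50774 (6759 to 1063386). The minor strand was a median of 5.89% of the major strand, from 0.235% to just under the limit. That ratio had a median of 8.11% in the 126 convergent windows, 2.59% in the 53 windows with no minor-strand gene and 1.85% in the 8 windows with a noncoding gene. Minor and major levels rose together across the convergent windows (Spearman's rho 0.56, n = 126), as a description, since the selection bounds the minor level from below and from above. Across the windows with no gene on the minor strand rho was 0.01 (n = 53). In that class the share of windows selected, by the floor and the ratio limit together, followed the level of the other strand. Another 5 windows without a minor-strand gene reached the floor but had a ratio of 0.2 or more, and were not selected. Selected were 15 of 868 windows with a major strand below 30000 (1.7%), 23 of 198 between 30000 and 100000 (11.6%), and 15 of 40 above that (37.5%). The median ratio over those same windows moved the other way, from 1.94% through 0.930% to 0.465%. The part of major-strand reads assigned to the wrong strand was not tested. Across 948 windows with genes on 1 strand only, the gene's strand was the higher one in 941.

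**Figure D1:**
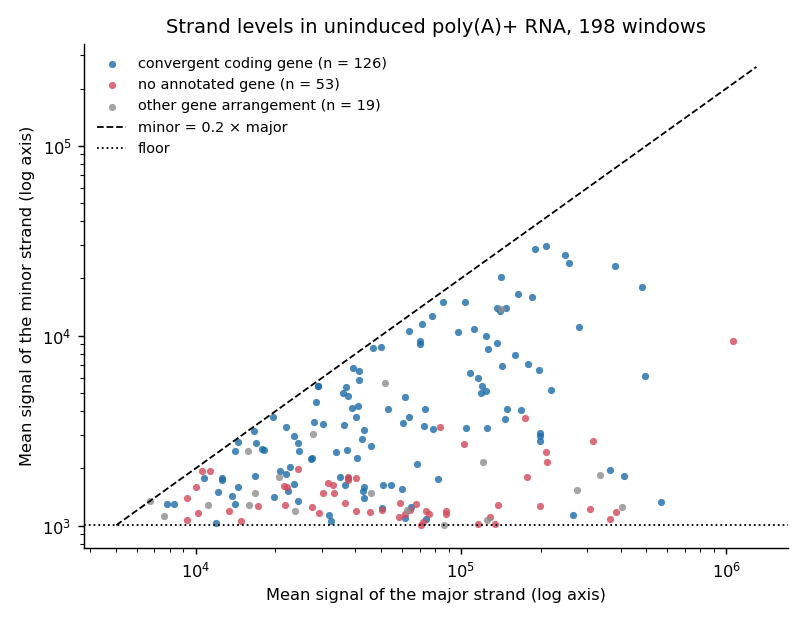
Mean signal of the minor strand against the major strand over the 3 uninduced poly(A)+ libraries, 1 point per window, both axes logarithmic; colours give what is annotated on the minor strand. All 198 points lie between the floor of 1005 and the line at 0.2 by construction; the 126 convergent windows spread upward with the major strand while the 53 windows with no minor-strand gene stay mostly near the floor.

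Windows at the edges of the rule looked alike on either side. Just inside the floor lay AT3G05905 opposite AT3G05900 with a minor mean of 1006 and the unannotated strand opposite AT1G73600 with 1008. Just outside it lay a pair of overlapping windows at AT5G58300 and RPT3, each with 1005 when rounded. Just inside the ratio limit lay AT5G49170 opposite MET1 (19.1%) and ICME-LIKE2 opposite AT3G02400 (19.9%). Just outside it lay PRA1.G2 opposite AT5G56220 (20.4%) and AUD1 opposite AT3G62840 (20.6%).

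Total signal over all windows and both strands was 55804893 to 58489785 in the poly(A)+ libraries and 18738150 to 31455657 in the ribo-minus libraries, and the smallest value above 0 ranged from 107 to 1005 between libraries. The first replicate of uninduced ribo-minus RNA listed the same value for both strands in every window, so it held no strand information and was left out of all strand comparisons, leaving 11 libraries. None of the 29 matched marker genes of shoot, root, seed, pollen or flower lay in a selected window, so the tissue label could not be checked on these strands, and RRP41 itself overlapped 0 windows, so the knockdown could not be checked either.

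The minor strands were low but recurrent. In the 3 induced poly(A)+ libraries, which the rule did not use, 171, 168 and 171 of the 198 minor strands reached the floor, and in the 2 uninduced ribo-minus libraries with strand information 164 and 159 did. In the induced ribo-minus libraries 165, 89 and 94 did; replicates 2 and 3 there have the smallest lowest values, 107 and 178, against 776 in replicate 1, and the lowest median minor signals, 823 and 952 against 1553. The part of that difference in detection limits in the counts was not tested. In uninduced ribo-minus replicate 2 the smallest value above 0 was 1005 itself, so any signal there reached the floor. The other 34 minor strands were listed at 0 in that library. The shares of all windows that reached the floor in each library are not given here. The minor strand was at or above the floor in all 11 libraries in 72 windows, and the major strand was the higher one in all 11 in 193. Between replicate libraries of 1 group, minor levels ranked less alike than major levels: Spearman's rho over the 198 windows was 0.81 to 0.89 against 0.99 in induced poly(A)+ RNA, and 0.75 to 0.91 against 0.98 to 0.99 in induced ribo-minus RNA.

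The minor share, the minor strand as a percent of both strands, had a median over the 198 windows of 5.65%, 5.04% and 5.98% in the uninduced poly(A)+ libraries and 5.32%, 5.40% and 5.65% in the induced ones. It was 9.25% and 7.99% in the uninduced ribo-minus libraries and 8.26%, 5.93% and 6.94% in the induced ones. The medians of the induced and uninduced poly(A)+ libraries overlapped, and those of all ribo-minus libraries but induced replicate 2 were above every poly(A)+ library. The smallest value above 0 was 1005, 786 and 776 in the ribo-minus libraries with medians of 9.25%, 7.99% and 8.26%. It was 107 and 178 in those with 5.93% and 6.94%. The part of these detection limits in the medians was not tested. In the convergent class the median share was 6.75% to 7.52% in induced poly(A)+ and 7.60% to 9.99% in induced ribo-minus libraries. In the uninduced libraries of that class it was 6.83% to 7.60% in poly(A)+ and 10.15% and 11.51% in ribo-minus RNA. In the class with no minor-strand gene it was 2.2% to 2.78% in induced poly(A)+ and 3.22% to 4.56% in induced ribo-minus libraries. There the uninduced values were 1.87% to 2.46% in poly(A)+ and 1.92% and 3.28% in ribo-minus RNA, so 1 of the 5 ribo-minus libraries was below all 3 induced poly(A)+ libraries in that class.

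**Figure D2:**
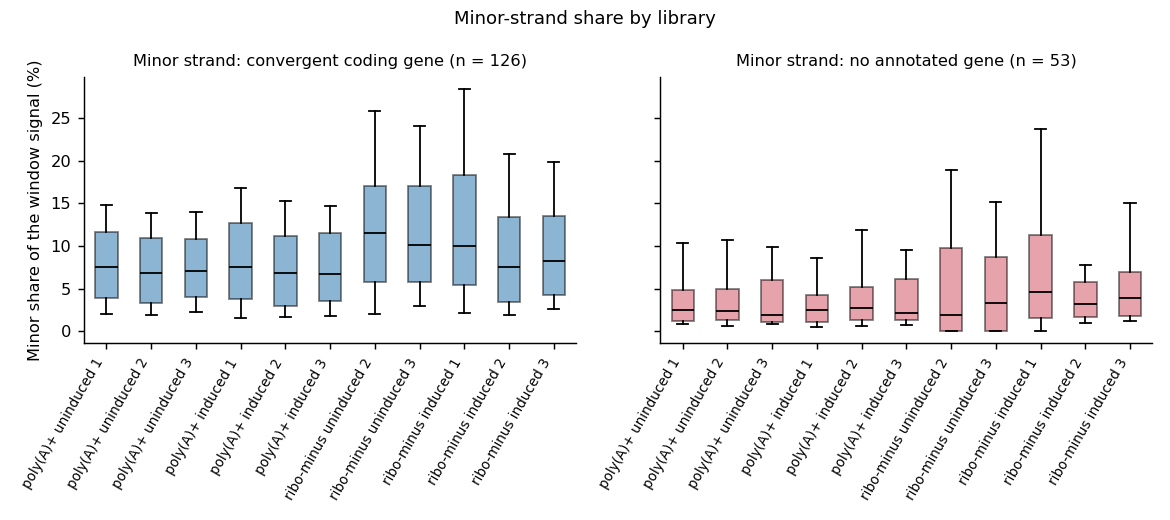
Minor share of the window signal (percent) in each of the 11 strand-resolved libraries, for the convergent windows on the left and the windows with no annotated minor-strand gene on the right. Boxes span the quartiles with the median as a line, and whiskers the 10th to 90th percentile; the medians of the ribo-minus boxes are mostly higher, and the boxes at 0 on the right are libraries in which many minor strands were listed at 0.

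The highest minor strands in induced poly(A)+ RNA were at coding genes convergent with the major gene; window coordinates are those of the TAIR10 build, counted from 1. SYP52, a syntaxin, stood opposite the kinase gene AT1G79600 (chr1:29947873-29950872) with 29571, 24635 and 26504 against 223248, 195192 and 179461 on the major strand. AT1G04810, a proteasome regulatory subunit, stood opposite the alpha-tubulin gene TUA4 in a pair of overlapping windows, with 26855, 26921 and 25258 in the upper one (chr1:1354294-1357293). TTL3, a tetratricopeptide thioredoxin-like gene, opposite GRF9 (chr2:17730412-17733411) had 23361, 23837 and 20085, and SHS1, a mitochondrial carrier family gene, opposite the cellulose synthase gene CESA1 (chr4:15639414-15642413) had 23797, 19715 and 22025. None of these 4 minor genes was an antisense RNA by annotation. The highest minor strands with no annotated gene were lower. GS2, the chloroplast glutamine synthetase gene, had the strongest major strand of all selected windows (1027999, 1004485 and 1051738, chr5:13831746-13834745), and its opposite strand had 6831, 8504 and 11320. The strand opposite AT5G11500, a coiled-coil protein gene, had 4496, 4692 and 6252, and that opposite the ribosomal protein gene RPL5B had 3320, 3439 and 5022. That opposite MDAR1, a monodehydroascorbate reductase gene, had 2554, 3461 and 3089. In these 4 windows the major strand was at least 153751 in every induced poly(A)+ library, and the minor strand stayed under it in every one. The strand opposite AT2G24990, also among the highest, is described with the knockdown.

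Whether the balance of the strands differed between the RNA fractions was tested in the induced libraries alone, none of which chose the windows. The minor strand took a larger part in ribo-minus RNA in 70 of the 160 windows whose strands both passed the low-value filter, and a smaller part in 7 (limma on log2 of minor over major with values raised to the floor, Benjamini-Hochberg over 448 windows). Over all 448 windows tested the calls were 31.2% higher and 7.81% lower, and the median change was 0.37 on the log2 scale against 0.75 in the 160. The size of this count depends on the floor, which lifts minor values in the weaker ribo-minus libraries: 51 of the 70 windows had a minor value under the floor in at least 1 induced ribo-minus library. Restricted to windows with both strands at or above the floor in all 6 libraries, 15 of 76 were called higher and 5 lower, where 16.4% and 9.16% of all 262 such windows were called higher and lower, and the median change was 0.26. On log2(value + 1) without the floor 18 were called higher and 3 lower, and after median-ratio scaling of the libraries 30 and 4. The shares of all 448 windows called under these settings are not given here, so these counts are not compared with all windows. Without any floor, the 3 ribo-minus shares were all above the 3 poly(A)+ shares in 42 of the 70 windows and all below in each of the 7. Over the 160 tested windows they were all above in 54 and all below in 12, and all 448 windows were not counted this way. The 70 and the 7 were called by direction in these same libraries, so these counts are no separate support.

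**Figure D3:**
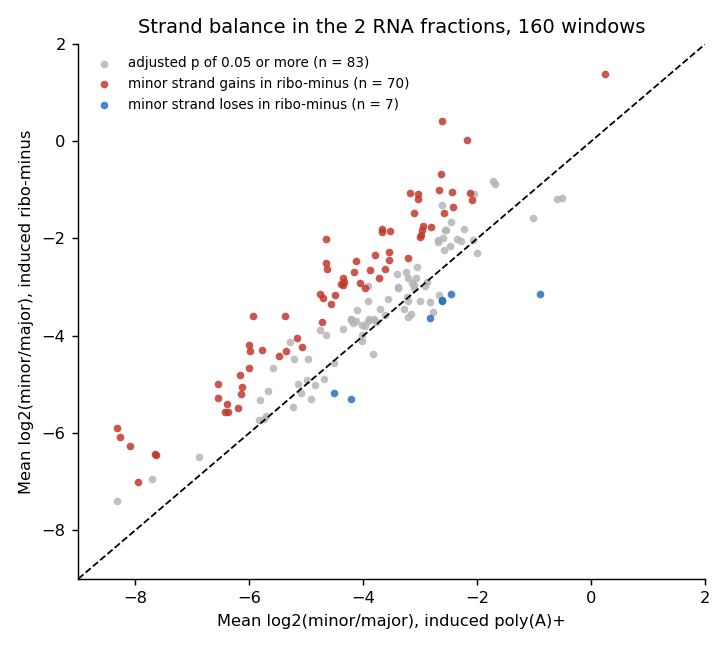
Mean log2(minor/major) with values raised to the floor in the 3 induced ribo-minus libraries against the 3 induced poly(A)+ libraries, 1 point per window for the 160 windows tested; the dashed line marks equal balance. The 70 windows called higher lie above the line and the 7 called lower lie under it, with AT1G68937 opposite AT1G68940 the furthest under the line of these 7.

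The largest shift was at KTF1, a transcription factor of the RNA-directed DNA methylation pathway, opposite the pectin lyase-like gene AT5G04310 (chr5:1201602-1204601), whose gap of 30 bases is printed above. The minor strand had 3039, 2354 and 1798 in induced poly(A)+ and 1553, 1578 and 655 in induced ribo-minus RNA. The KTF1 strand had 15205, 14261 and 13712 and then 1035, 943 and 905. The major strand was lower in ribo-minus RNA by far more than the minor strand was, and the order of the strands was reversed in 2 of the 3 libraries; the log2 balance changed by 3.03 ± 0.25 (SE, n = 3 against 3, limma adjusted p = 7.94e-05). The same reversal stood in the uninduced ribo-minus libraries, with 1900 and 1258 on the minor against 1341 and 1048 on the major strand.

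The next windows also had low values, mostly on the minor strand. The strand opposite CIP1, the gene of a protein that binds the photomorphogenesis repressor COP1, had 1899, 2051 and 2316 in poly(A)+ and 1483, 242 and 332 in ribo-minus RNA, and its balance changed by 2.64 ± 0.21 (limma adjusted p = 7.62e-05), a call lost on log2(value + 1), where the change was 1.43 with an adjusted p of 0.108. The strand that holds MIR5018, opposite the cytosolic isocitrate dehydrogenase gene cICDH, had 1051, 896 and 1119 and then 1827, 435 and 633, while cICDH fell from between 318980 and 380713 to between 65643 and 89959. Its balance changed by 2.43 ± 0.24 (limma adjusted p = 0.000106). An overlapping window at cICDH with no gene on its minor strand had 1051, 836 and 1128 and then 1827, 506 and 587 there, and its balance changed by 2.17 ± 0.24 (limma adjusted p = 0.000192), so the signal cannot be assigned to the MIR5018 precursor. A minor strand that held AT1G64130, opposite AT1G64140, changed in balance by 2.34 ± 0.21, from signals of 1116, 1069 and 1267 to 1035, 161 and 336; this call too was lost on log2(value + 1), where the change was 0.94 with a limma adjusted p of 0.324. Without the floor its minor shares were 1.44%, 1.65% and 1.73% in poly(A)+ and 7.49%, 1.35% and 2.65% in ribo-minus RNA, and overlapped. ICME-LIKE2, nested with AT3G02400, had 1087, 330 and 268 in induced ribo-minus RNA against 1035, 269 and 588 on the major strand. Of these 6 values 4 were under the floor, so the balance with values raised to it says little there. Without the floor its minor shares were 51.2%, 55.1% and 31.3% against 23.6%, 15.8% and 13.3% in induced poly(A)+ RNA, without overlap, and the balance changed by 2.01 on log2(value + 1) (limma adjusted p = 0.0298).

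A shift carried by larger values was that of G6PD2, a glucose-6-phosphate dehydrogenase gene, opposite Pnsl5, which encodes a cyclophilin of the chloroplast NDH complex; it was singled out after its values were seen. In the lower of 2 overlapping windows (chr5:4160094-4163093) G6PD2 had 10895, 11749 and 13153 in induced poly(A)+ and 5577, 5694 and 5949 in induced ribo-minus RNA. Pnsl5 had 73367, 67524 and 83000 and then 8583, 9083 and 9784. The balance of that window changed by 1.97 (limma adjusted p = 0.000106), with every value above the floor.

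Of the 7 windows called lower, the change was largest at AT1G68937, an uncharacterized coding gene, which overlaps the divergent armadillo-repeat gene AT1G68940 (chr1:25924738-25927737). The minor strand, which also holds the lncRNA AT1G09023 and the coding gene AT1G68945, had 20090, 16058 and 15913 in induced poly(A)+ and 5692, 4282 and 3952 in induced ribo-minus RNA. The major strand had 31661, 29381 and 36405 and then 44892, 37806 and 38510, and was the only major strand of the 198 called higher in ribo-minus RNA without rescaling. The balance changed by -2.23 ± 0.22 (limma adjusted p = 0.000106). The other windows named by the rule were RUL1, a leucine-rich repeat kinase gene, opposite the cellulose synthase gene CEV1 (-1.08), AT5G10830 opposite EMP1 (-0.80), AT2G43180 opposite AT2G43160 (-0.69) and AT3G09750 opposite the syntaxin gene SYP71 (-0.67). The last 3 calls were each lost under several alternatives.

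By class, the counts of balance calls depended on the floor. Of the 53 minor strands with no gene, 37, 8 and 8 reached it in the 3 induced ribo-minus libraries, and of the 8 with a noncoding gene 6, 2 and 3 did. With values raised to the floor the balance was called higher in 24 of 35 tested windows with no minor-strand gene, where 61.2% of all 67 such windows were called higher. On log2(value + 1) it was called higher in 0 of those 35, against 8.96% of all such windows tested. With both strands at or above the floor in every library it was called higher in 1 of 5, against 33.3%. For windows with a noncoding gene the calls were 6 of 7, 2 of 7 and 1 of 1 under these 3 settings. Of all windows tested with a noncoding gene on the minor strand, 83.3%, 44.4% and 100% were called higher. For convergent windows the calls were 36 of 109 higher and 6 lower, 14 of 109 and 2, and 12 of 65 and 4. Of all convergent windows tested, 21.2%, 9.8% and 13.5% were called higher. The difference between classes was not tested, and nothing is read from it.

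Taken strand by strand, ribo-minus signal was lower than poly(A)+ signal for most features: 194 of 198 major and 113 of 160 minor strands were called lower, and 1 major and 0 minor strands higher, where 81.5% of all 2108 strands were called lower and 2.7% higher. By role, 84.1% of all 1655 major strands tested were called lower and 2.9% higher. Of all 453 minor strands tested 72.0% were called lower and 1.99% higher, against 70.6% lower in the 160. With median-ratio scaling, which moved the median change of all strands from -1.39 to 0.05, 17 minor strands were higher and 7 lower, and 12 major strands were higher and 59 lower. Under that scaling 19.1% of all 2108 strands were called higher and 15.3% lower. Unscaled, 0 minor strands were called higher, and none passed the threshold upward on log2(value + 1) either.

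The knockdown was compared in ribo-minus RNA with 3 induced and 2 uninduced libraries that the rule did not use. Of the 167 minor strands tested none passed the threshold, with a smallest limma adjusted p of 0.0788 and 1 of 198 major strands did. An unadjusted p under 0.05 was found for 36 of the 167 (21.6%), against 101 of all 624 minor strands tested (16.2%) and 393 of all 2380 strands (16.5%). Over all 2380 strands tested 0.294% were called higher and 0.21% lower. The count under other settings ran from 0 to 29, the latter when all 11 libraries shared 1 fit. With median-ratio scaling 1 minor strand was higher and 6 lower, and on median-ratio scaling with log2(value + 1) 1 was higher and 0 lower. The shares of all strands called under these settings are not given here, and nothing is read from the counts. The median change of the 167 minor strands was -0.25, that of the 198 major strands -0.08, and that of all strands -0.17.

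The 1 call was CPD, the cytochrome P450 gene of brassinosteroid synthesis, whose 3′ end overlaps that of the nucleoporin gene MOS7 by the 20 bases printed above (chr5:1701028-1704027). The CPD strand had 46608 and 51571 in uninduced and 23034, 24184 and 25654 in induced ribo-minus libraries, a log2 change of -1.01 ± 0.12 (SE, limma adjusted p = 0.0286). In poly(A)+ RNA it fell from 124114, 150339 and 153772 to 68859, 77250 and 74238. The MOS7 strand was at 7575, 6718 and 6487 and then 7513, 7883 and 7122 in poly(A)+ RNA, with overlapping groups, and at 3968 and 4442 and then 2458, 2398 and 1887, without overlap, in ribo-minus RNA. The call on CPD was lost when any of the 5 libraries was left out, with adjusted p between 0.0507 and 0.119, and with the replicate number as a block (0.249). The change remained at 0.94 or more below 0 in each of those fits.

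The next smallest p-values were for BGLU11, a beta-glucosidase gene, and for Pnsl5. BGLU11 (chr1:632020-635019) had 9158 and 10388 in uninduced and 29846, 25875 and 19624 in induced ribo-minus RNA, 1.34 ± 0.20 on the log2 scale (limma adjusted p = 0.0546). Pnsl5 had 16354 and 16327 and then 8583, 9083 and 9784, -0.84 ± 0.14 (limma adjusted p = 0.0685). For both genes the groups did not overlap. BGLU11 passed the threshold when induced replicate 3 was left out and in 5 other settings, and Pnsl5 in 3.

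The balance changed with the knockdown in ribo-minus RNA in 1 of 167 windows, upward, and in 0 downward, where 1.46% of all 618 windows were called higher and 0.647% lower. An unadjusted p under 0.05 was found for 21 of the 167 (12.6%), against 93 of all 618 (15.05%). The window was that of AT1G68937 and AT1G68940. The minor strand had 2044 and 2117 in uninduced and 5692, 4282 and 3952 in induced libraries, and the major strand 43277 and 62396 and then 44892, 37806 and 38510. The log2 balance changed by 1.51 ± 0.25 (limma adjusted p = 0.0228), a call lost without either induced replicate 1 (0.143), induced replicate 2 (0.0895) or uninduced replicate 3 (0.0671), and under the replicate block (0.105). It was also lost on log2(value + 1) (limma adjusted p = 0.538), on log2(value + floor) (0.0914) and without the low-value filter (0.0884). Next by p-value were AT4G14330 opposite the ribosomal protein gene AT4G14320 (-1.26, limma adjusted p = 0.079) and AT4G17000 opposite the resistance-protein gene RLM3 (-0.96, limma adjusted p = 0.103).

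In poly(A)+ RNA the knockdown is given as a description, because the uninduced libraries of that contrast chose the windows. Of 188 minor strands tested 9 passed the threshold upward and 6 downward, and of 198 major strands 8 upward and 22 downward. Over all 2151 strands 5.11% were called higher and 7.07% lower, and nothing is read from these counts. Median-ratio scaling changed the split over both strands from 17 higher and 28 lower to 25 and 18, while the median change of all strands moved from -0.079 to -0.0034. The shares of all strands called under that scaling are not given here, and nothing is read from this split either.

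The highest minor rise was at AT1G03495, an HXXXD-type acyltransferase gene, whose window (chr1:871457-874456) has no coding gene on the major strand. Its signal was 908, 1138 and 1312 in uninduced and 4793, 7288 and 11793 in induced poly(A)+ libraries, a log2 change of 2.70 ± 0.31 (limma adjusted p = 0.000756). The opposite strand had 7446, 5892 and 9524 and then 6896, 5405 and 6632, so that the named gene was the lower strand in the controls and the higher one in 2 of 3 induced libraries. In ribo-minus RNA, which the rule did not use, it had 0 and 786 in uninduced and 2933, 3250 and 5347 in induced libraries, with no overlap (limma adjusted p = 0.0788), and was above the opposite strand in all 3 induced libraries.

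AT3G09680, a ribosomal protein gene of the S12/S23 family, overlaps the Tudor-domain gene AT3G09670 by the 14 bases printed above and was read in a pair of overlapping windows with the same values (chr3:2967644-2970643). It had 1238, 1646 and 992 in uninduced and 4457, 5695 and 6070 in induced poly(A)+ RNA, 2.08 ± 0.24 (limma adjusted p = 0.000753). In ribo-minus RNA its values of 1341 and 1048 and then 2219, 1438 and 995 overlapped (limma adjusted p = 0.683). AT3G09670 had 9518, 8894 and 6544 and then 8537, 7600 and 8261 in poly(A)+ RNA, also overlapping.

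The unannotated strand opposite AT2G24990, which encodes a kinase of the Rio1 family (chr2:10627535-10630534), had 966, 1035 and 1591 in uninduced and 5154, 5865 and 3992 in induced poly(A)+ libraries, 2.06 ± 0.25 (limma adjusted p = 0.000947). AT2G24990 itself had 12904, 14133 and 13216 and then 28843, 21078 and 20673, 0.79 ± 0.14 (limma adjusted p = 0.00632). Both strands of this window were thus higher in every induced library. In ribo-minus RNA the minor strand had 1005 and 0 and then 2230, 1414 and 1930, without overlap (limma adjusted p = 0.14), and the major strand 4996 and 3796 and then 6975, 5414 and 6910.

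AT4G06430, a miscellaneous RNA gene opposite SNC1, a gene for a disease resistance protein of the TIR-NBS-LRR class (chr4:9497731-9500730), had 1016, 3025 and 2416 and then 5225, 6382 and 6646 in poly(A)+ RNA, 1.63 ± 0.36 (limma adjusted p = 0.0221). SNC1 ranged from 95448 to 145685 in uninduced and from 115492 to 185396 in induced libraries. The call was lost when induced replicate 1 (0.0512) or replicate 2 (0.084) was left out, and its ribo-minus values of 0 and 983 and then 3251, 800 and 1174 overlapped. AT1G68937, described above, had 5420, 5966 and 5584 and then 20090, 16058 and 15913 in poly(A)+ RNA, a log2 change of 1.61, while AT1G68940 fell from 54388, 46483 and 54983 to 31661, 29381 and 36405, -0.68 ± 0.10 (limma adjusted p = 0.0036).

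**Figure D4:**
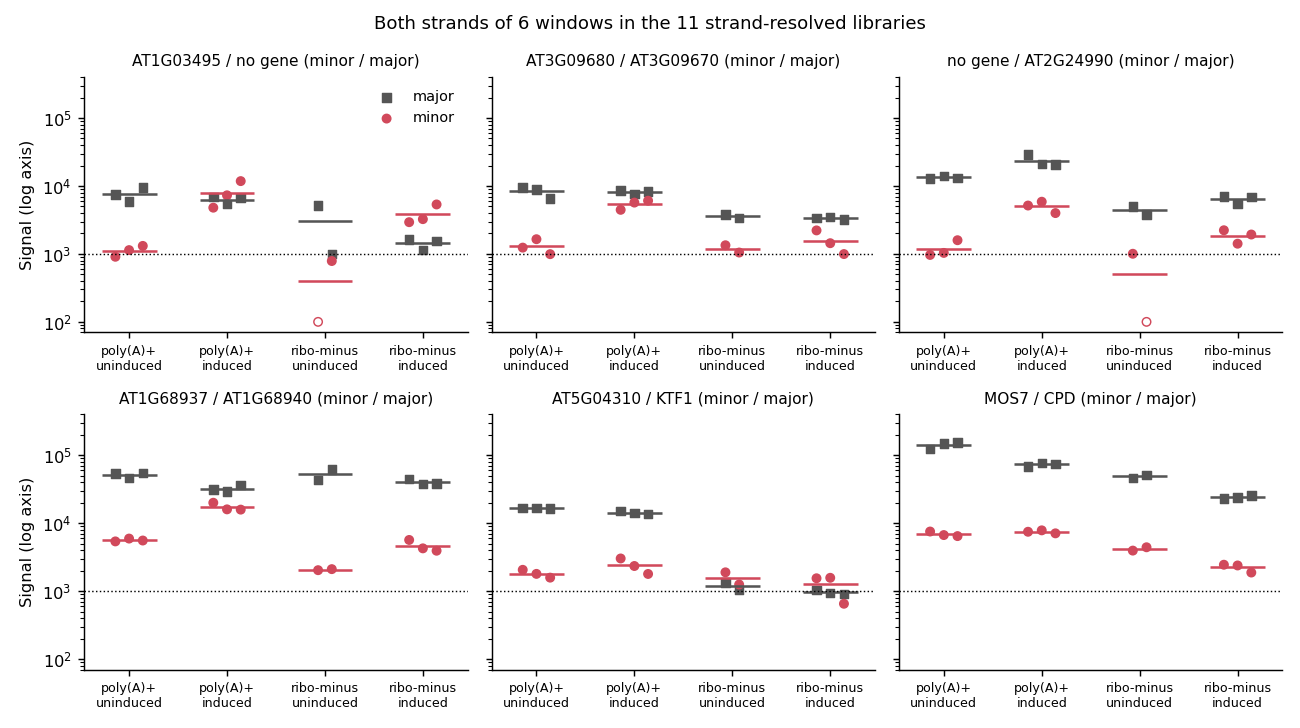
Signal of the minor strand (red circles) and the major strand (grey squares) in the 11 strand-resolved libraries for 6 windows, on a logarithmic axis; short lines are group means, the dotted line is the floor of 1005, and open symbols drawn at 100 are values of 0. AT1G03495 and AT1G68937 approach or pass the opposite strand in induced poly(A)+ RNA, and the KTF1 strand is near the minor strand in ribo-minus RNA only.

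The 6 minor strands called lower were genes convergent with the major gene, as were the minor genes of 126 of the 198 windows. AT3G59930, a defensin-like gene opposite the RAB regulator GDI2, had 14985, 7924 and 22474 in uninduced and 5854, 7617 and 4242 in induced poly(A)+ RNA, -1.27 ± 0.35 (limma adjusted p = 0.0476), with uninduced values that spread widely; leaving out any library but uninduced replicate 2 lost the call (0.0742 to 0.134). In ribo-minus RNA it had 4144 and 7176 and then 2508, 2481 and 1734. CML41, a calmodulin-like gene, had 2469, 2736 and 3041 and then 1719, 1304 and 620, and RABA6a, a RAB GTPase gene, had 1893, 2054 and 2397 and then 1161, 1165 and 768. AT2G07170, an armadillo-repeat gene opposite the kinase gene AT2G07180, had 3718, 3187 and 3275 and then 2140, 1311 and 2059. ATHXK4, a hexokinase gene opposite the chaperonin gene TCP-1, had 3673, 2997 and 3063 and then 1562, 1895 and 2098. Their log2 changes were -1.06, -0.93, -0.92 and -0.81, with no overlap between the groups, and each of these 4 calls was lost when at least 3 of the 6 libraries were left out in turn.

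On the major strand BGLU11 went from 39286, 31475 and 38538 to 92565, 75554 and 64308 in poly(A)+ RNA, 1.08 ± 0.14 (limma adjusted p = 0.00128). AT1G73600, a methyltransferase gene, went from 58097, 81983 and 71705 to 142625, 123033 and 173838, and the unannotated strand opposite it from 793, 1319 and 911 to 1991, 2389 and 3602. SR30, a splicing factor gene of the serine-arginine family, changed by 0.71 ± 0.09 and AT1G50920, a nucleolar GTPase gene, by 0.46 ± 0.07. Among the strands called lower, CPD changed by -0.95 ± 0.09, Pnsl5 by -0.92 and -0.88 in its 2 windows, and TUA4 by -0.71 ± 0.12. TUA4 had 266342, 235948 and 263050 in uninduced and 135133, 146564 and 191483 in induced libraries, while AT1G04810 on the minor strand of that window had 23402, 23952 and 25470 and then 24158, 24959 and 23057, with overlapping groups. G6PD2, convergent with Pnsl5, likewise overlapped between groups in that window, with 14319, 14163 and 11839 and then 10895, 11749 and 13153.

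**Figure D5:**
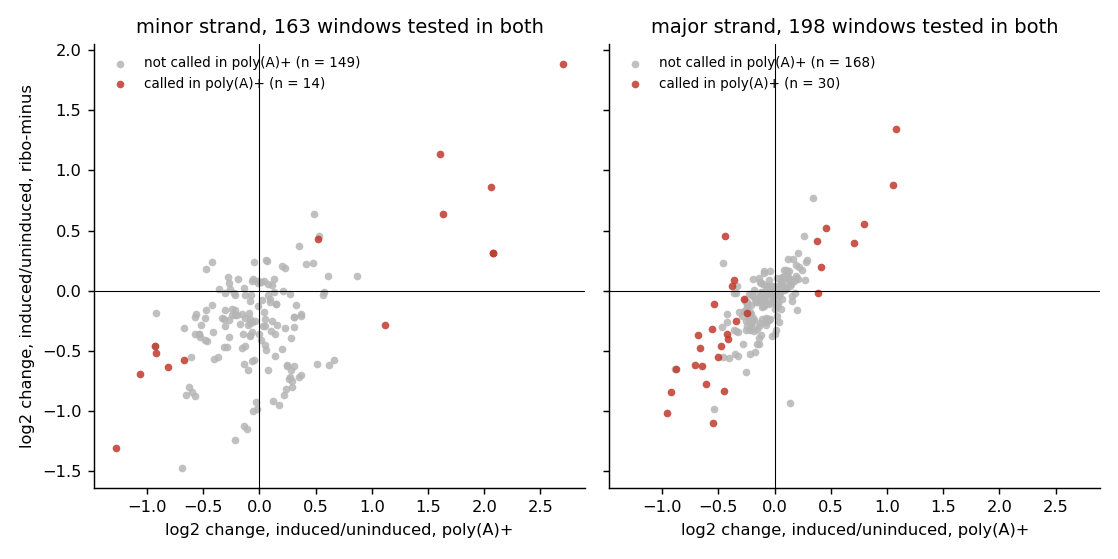
Log2 change from uninduced to induced seedlings in ribo-minus RNA against that in poly(A)+ RNA, for the minor strand (163 windows) and the major strand (198 windows); red points passed the threshold in poly(A)+ RNA, whose uninduced libraries chose the windows. Most red points lie in the lower left and upper right quadrants, and BGLU11 is the highest point of the right panel.

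The changes in the fractions came from separate libraries made from shared RNA samples. Across windows their Spearman rank correlation was 0.68 for the major strands (n = 198) and 0.26 for the minor strands (n = 163), as a description.

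Few members of the gene lists examined fell in the selected windows. By symbol, 10 of 20 exosome and cofactor genes and 13 of 14 genes known for antisense or overlapping transcripts were matched to the annotation. In any window, selected or not, lay 2 of the matched exosome and cofactor genes and 5 of the small RNA genes. The 3′ end processing genes and the elongation genes had 1 each there. None of these genes lay in a selected window. Of the genes known for antisense or overlapping transcripts, 6 lay in any window and 3 in a selected one. These small counts were not tested, and nothing is read from them.

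P5CDH (listed as ALDH12A1) and SRO5 form an Arabidopsis pair known from work on salt stress to give overlapping transcripts and small RNAs, and by annotation they overlapped by 905 bases here (chr5:25098242-25101241). P5CDH encodes an enzyme of proline breakdown. SRO5, the minor strand, had 2633, 1270 and 2931 in uninduced and 3403, 3078 and 2510 in induced poly(A)+ RNA, and 1293 and 1223 and then 1942, 1321 and 1264 in ribo-minus RNA. P5CDH had 23753, 28709 and 30272 and then 28690, 33881 and 31137 in poly(A)+ RNA. The groups overlapped in each of these poly(A)+ comparisons, with limma adjusted p of 0.348 for SRO5 and 0.303 for P5CDH. SVP, a floral repressor gene, had 89623, 73729 and 100598 and then 85896, 81699 and 84691, opposite an unannotated strand with 1037, 1338 and 1060 and then 1983, 1582 and 1161. None of these 3 listed genes' strands passed the threshold in either fraction.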

How the data were processed

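Strand-specific RNA-seq of the 12 libraries was deposited as 1 table per library, with 1 whole-number signal value per window and strand. How the authors computed and scaled this signal is not given in the sources used here. Per the submitters' processing notes, the tools were Cuffdiff, Cufflinks 2.1.1, TopHat2 2.0.9 and CASAVA 1.8.2, and the build TAIR10. Read depth is unknown, so no counting interval is given. Annotation and sequence came from RefSeq's TAIR10.1, whose nuclear chromosomes match TAIR10; a coding gene counted as present where it touched the window.

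Values were raised to the floor, put on a log2 scale and tested with limma 3.58.1 (eBayes with trend; R 4.3.3), strands kept at the floor or above in 3 of 6 libraries (2 of 5 for the ribo-minus knockdown), and p adjusted by Benjamini-Hochberg over all strands or windows at 0.05. SD, SE and n refer to the libraries of a group; the labels call the replicates biological.

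The windows, gene lists and tests were chosen with earlier results of these data known. Named windows were, per contrast, strand and direction, the 5 with the largest called change whose groups did not overlap, the 5 highest minor strands with and without a gene, windows whose strand order changed, those nearest each limit, and listed genes. Where fewer than 3 passed, the 3 smallest p were taken. Same-numbered libraries of the fractions share an RNA sample, per the labels' protocols, and deviated together in induced seedlings (correlations 0.25, 0.11 and 0.37 over 1689 strands). Some listed genes are not reported here.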

Additional observations from a re-analysis of the deposited data

Results flagged for a closer look

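Ribo-minus uninduced replicate 1 was used in no strand comparison, because its strand columns are equal in every window. Signal was nevertheless present there: 195 of the 198 windows were at or above the floor of 1005 in it. Those values are the same for both strands and say nothing about the minor strand.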

How the results depend on the processing

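Main counts of called strands or windows were 45 (poly(A)+ knockdown), 1 (ribo-minus knockdown), 308 (fractions, strands), 77 (fractions, balance) and 1 (ribo-minus balance). Without the trend the poly(A)+ count was 29, and leaving out 1 library gave 25 to 56. The ribo-minus knockdown count was 6 on log2(value + 1), 10 on log2(value + floor), 0 without the filter, 8 with median-ratio scaling, 0 without the trend, 29 with all 11 libraries in 1 fit, 4 with median-ratio scaling on log2(value + 1), chosen after seeing the data, 0 with the unstranded library, and 0 to 1 leaving out 1 library. Median-ratio scaling gave 95 for the fraction strands. The fraction balance count was 21 on log2(value + 1), 125 without the filter, 34 with median-ratio scaling, 20 with both strands at the floor in every library (chosen after seeing the data) and 48 to 65 leaving out 1 library. The ribo-minus balance count was 0 on log2(value + 1), 0 on log2(value + floor), 0 without the filter, 4 with all 11 libraries and 0 to 2 leaving out 1 library. Why the counts moved was not tested, apart from the smaller number of windows that the requirement in every library leaves. With the replicate number as a block the counts were 43, 0, 313, 90 and 1; the numbers pair the fractions, and between knockdown groups same-numbered libraries deviated with correlations of -0.07 to 0.09, so they share only a number. Counting values of 1 or more in place of the floor, the mean number of minor strands detected per library was 197.67 and 197.33 in uninduced and induced poly(A)+ and 169.5 and 192 in uninduced and induced ribo-minus RNA. Of the named strands and windows, 32 were called, and over their alternatives the call was kept 340 times, lost 76 times and reversed once. The other 4 were not called, and stayed so in 44 alternatives and passed in 11. The value that reversed was the ribo-minus balance of AT1G68937 opposite AT1G68940, at -0.040 with the unstranded library, whose equal strands set its balance to 0.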
